A study of Homo sapiens with 6 samples.

Results

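The zinc finger genes of chromosome 19 were compared between HCCLM3 cells that received a LINC00862 vector and HCCLM3 cells that received an empty vector. Members were the protein-coding genes on chromosome 19 whose symbol is ZNF followed by digits and at most 1 letter, and 235 of the 35856 genes listed met this rule, which uses no measured value. HCCLM3 is a long-established line of human liver cancer cells, and LINC00862 is a long non-coding RNA that the study overexpressed from a plasmid to look for genes that respond to it. RNA was sequenced from 3 libraries with the LINC00862 vector (LINC00862) and 3 with the empty vector (NC), with no other allele, agent or time point in the labels. The labels do not say whether the libraries came from separate transfections or from 1 clone, so p-values measure only the spread between these libraries, which may be technical. Values are given in the order of replicates 1, 2 and 3 of each group.

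The ZNF genes of chromosome 19 mostly encode C2H2 zinc finger proteins, in which tandem fingers each hold a zinc ion and together read a stretch of DNA. Many also carry a KRAB domain, which recruits TRIM28 (KAP1) and through it the H3K9 methyltransferase SETDB1, HP1 proteins and the NuRD deacetylase complex, so that the bound DNA is packed into H3K9-methylated chromatin. The family grew by tandem duplication, its genes lie in clusters along the chromosome, and many of its proteins bind and silence transposable elements, while their own coding regions are marked by H3K9 methylation in many cell types.

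The promoters of 6 members are shown because the genes behind them lie in 1 cluster and changed in opposite directions. Each line below gives the 250 bases before the RefSeq start of a gene (build GRCh38.p14), read 5′ to 3′ on the strand of the gene, with CCAATCAG in capitals. The windows of ZNF93 (chr19:19900696-19900945, plus strand), ZNF486 (chr19:20166964-20167213, plus strand) and ZNF626 (chr19:20661572-20661821, minus strand) belong to genes that rose in LINC00862. Those of ZNF90 (chr19:20077750-20077999, plus strand), ZNF681 (chr19:23758892-23759141, minus strand) and ZNF730 (chr19:23116775-23117024, plus strand) belong to genes that fell, and the ZNF730 window lies inside the span that the deposited table gives for that gene.
ZNF93: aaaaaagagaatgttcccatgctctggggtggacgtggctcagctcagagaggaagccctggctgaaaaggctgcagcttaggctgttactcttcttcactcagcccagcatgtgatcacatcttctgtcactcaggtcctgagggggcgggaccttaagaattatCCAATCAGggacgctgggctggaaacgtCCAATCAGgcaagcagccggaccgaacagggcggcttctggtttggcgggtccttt
ZNF486: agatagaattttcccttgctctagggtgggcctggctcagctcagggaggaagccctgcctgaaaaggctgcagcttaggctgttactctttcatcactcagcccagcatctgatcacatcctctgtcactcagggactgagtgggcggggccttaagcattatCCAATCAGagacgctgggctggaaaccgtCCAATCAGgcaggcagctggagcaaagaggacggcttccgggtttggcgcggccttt
ZNF626: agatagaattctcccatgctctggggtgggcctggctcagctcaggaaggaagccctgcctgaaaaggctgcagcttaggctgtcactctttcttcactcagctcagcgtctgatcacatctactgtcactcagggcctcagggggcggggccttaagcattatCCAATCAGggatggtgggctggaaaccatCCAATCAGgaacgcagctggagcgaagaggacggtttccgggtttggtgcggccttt
ZNF90: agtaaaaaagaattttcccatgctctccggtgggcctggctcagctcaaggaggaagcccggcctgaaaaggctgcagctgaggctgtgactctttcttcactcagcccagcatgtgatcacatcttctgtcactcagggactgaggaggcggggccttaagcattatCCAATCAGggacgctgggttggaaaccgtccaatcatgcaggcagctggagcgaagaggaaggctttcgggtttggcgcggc
ZNF681: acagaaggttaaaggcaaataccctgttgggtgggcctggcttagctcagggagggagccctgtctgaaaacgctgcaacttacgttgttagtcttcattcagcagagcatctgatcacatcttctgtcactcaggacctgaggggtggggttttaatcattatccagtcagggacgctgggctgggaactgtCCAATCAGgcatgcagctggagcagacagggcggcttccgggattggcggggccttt
ZNF730: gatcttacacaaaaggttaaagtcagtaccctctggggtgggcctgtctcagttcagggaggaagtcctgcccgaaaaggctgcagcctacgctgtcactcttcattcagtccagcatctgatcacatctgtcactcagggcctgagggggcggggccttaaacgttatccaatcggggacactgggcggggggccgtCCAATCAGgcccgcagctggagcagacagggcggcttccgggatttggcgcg

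Aligned in pairs, these 6 sequences were 74.0 to 91.2% identical (median 79.1% over 15 pairs). The closest pair was ZNF486 and ZNF626, which both rose, while ZNF486 and ZNF90, which changed in opposite directions, were 89.4% identical. CCAATCAG, which contains the CCAAT box known as a binding site of the factor NF-Y, was chosen after the promoters were read and was searched on both strands. In ZNF93 it began 84 and 56 bases before the start, in ZNF486 and in ZNF626 86 and 57 bases before it, in ZNF90 82, in ZNF681 57 and in ZNF730 52. RefSeq promoters were at hand for 209 members, and the word stood in 53 of them (25.4%), against 3.81% of all 35116 promoter entries of the same length. It stood in 28 of 28 promoters of the cluster that holds these 6 genes and in 20 of 23 of the cluster between ZNF653 and ZNF791, but in 0 of 54 of the cluster between ZNF628 and ZNF446. A match of letters is a description and no evidence of a bound factor.

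Total counts lay between 58241123 and 68229070 per library, and the 10 highest genes took 8.42 to 11.7% of the counts in NC and 19.4 to 29.2% in LINC00862. LINC00862 itself had 11, 21 and 6 counts in NC and 145, 121 and 76 in LINC00862, so the labels and the gene ran the same way (log2 fold change 3.22, adjusted p = 0.000583). Its level stayed low also with the vector, at 0.530, 0.506 and 0.312 FPKM. Every adjusted p given here comes from the quasi-likelihood test of edgeR, adjusted over all genes tested by the method of Benjamini and Hochberg. The hepatoma label was checked against markers. Of 8 hepatocyte genes 5 were higher and 1, SERPINA1, was lower in LINC00862, and their summed FPKM was 2.94 to 3.46 in NC and 539 to 618 in LINC00862. FGB alone had 525 to 598 FPKM in LINC00862, TF 12.2 to 17.5 and ALB 1.21 to 1.71, and APOA1 and APOH were too low to be tested. ALB had 0, 0 and 7 counts in NC against 423, 394 and 282, and TTR had 0 in all NC libraries. Of 4 hepatoma and fetal liver genes, DLK1 is not in the table and the others were very low in both groups. AFP had 14, 24 and 30 counts in NC and 0 in all LINC00862 libraries. GPC3 and IGF2 were too low to be tested and had 0 counts in all NC libraries. In LINC00862, GPC3 had 7, 6 and 4 counts and IGF2 12, 0 and 7. Of 6 epithelial genes 5 were higher (summed FPKM 194 to 287 against 482 to 551), and of 6 mesenchymal genes 5 were lower (601 to 659 against 14.8 to 19.3). Of 5 leukocyte genes 2 were higher (2.82 to 3.60 against 9.08 to 15.1), with PTPRC and CD3E detected in every library, and of 4 endothelial genes 1, CDH5, was higher (1.17 to 1.74 against 4.44 to 5.89). These markers move with every result given here, and a response to LINC00862 and a difference in the origin of the cells cannot be told apart. Their part in the results was not tested. In such bulk libraries, fewer cells that express a gene and less of its RNA per cell cannot be told apart either.

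All members had at least 1 count in some library, as did all 35856 genes listed. Above 0 in all 6 libraries were 18408 of those genes and 202 of the 235 members. Many were low: 117 of the 235, against 23469 of all 35856 genes listed, had a mean below 1 FPKM (fragments of a gene scaled to its length and to the depth of the library), the median was 1.00 FPKM (all genes 0.203) and the range 0.00156 to 27.6 FPKM. The filter on low counts kept 222 members. The 13 that were not tested were ZNF560, ZNF439, ZNF43, ZNF208, ZNF723, ZNF610, ZNF880, ZNF415, ZNF665, ZNF677, ZNF667, ZNF835 and ZNF135, none with more than 30 counts in a library.

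Summed over the members, the FPKM was 365, 341 and 319 in NC and 432, 442 and 422 in LINC00862, and every LINC00862 library lay above every NC library. Their share of all counts was 0.208, 0.184 and 0.164% in NC and 0.246, 0.256 and 0.247% in LINC00862, again without overlap. The number of members at 1 FPKM or more was 120, 102 and 85 in NC and 122, 121 and 119 in LINC00862. By this number NC replicate 1 stood close to the LINC00862 libraries, and the NC libraries differed more among themselves than the LINC00862 libraries did.

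At a false discovery rate of 0.05, 148 of the 222 tested members (66.7%) differed between the groups, against 64.2% of all 20741 genes tested, so the share itself sets the members apart little from other genes. Their direction leaned upward. Of the members tested, 101 (45.5%) were higher in LINC00862, against 34.4% of all genes, 47 (21.2%) were lower, against 29.8%, and 74 passed the test in neither direction. Their median log2 fold change was 0.53, against 0.11 for all genes tested. The ZNF genes of the same name pattern on other chromosomes had a median of 0.21, with 77 of 237 higher and 61 lower. Other protein-coding genes of chromosome 19 had a median of 0.02, with 288 of 850 higher and 274 lower. The groups did not overlap in FPKM for 157 members (70.7%), against 71.1% of all genes tested.

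A fitted change of over 16-fold was found for 22 members (9.91%), 10 higher and 12 lower, against 15.9% of all genes tested. They were 15 of 71 on the short arm (21.1%, other coding genes of that arm 10.4%) and 7 of 151 on the long arm (4.64%, other coding genes 16.6%). These shares rest on fitted values, and low counts leave some members unsure of 16-fold. ZNF442 and ZNF730, both on the short arm, were bounded at only 14.8-fold and 12.1-fold. In the middle of the range of member counts, between a mean of 183 and 780 counts, 71 of 110 members were called (64.5%), against 70.3% of all genes in that range, and 51 of the 71 (71.8%) were higher, against 1342 of the 2396 genes called in that range (56.0%).

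**Figure D1:**
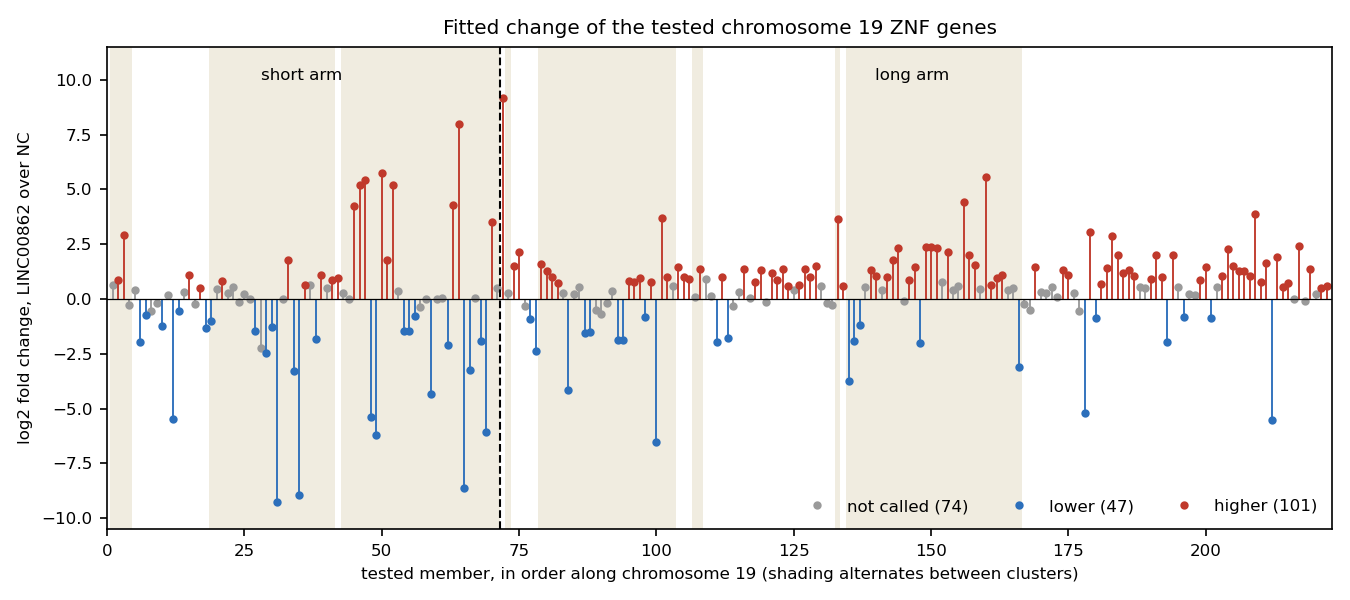
Fitted log2 fold change (LINC00862 over NC) of the 222 tested members on the vertical axis, in their order along chromosome 19 on the horizontal axis, with red for the 101 higher, blue for the 47 lower and grey for the 74 not called. Shading alternates between clusters and the dashed line marks the centromere gap. The long arm holds 82 of the 101 higher members. The 5 longest bars are those of the members with a group at 0, whose fitted values are no bounds. Of these 5, only ZNF536, just past the gap, lies on the long arm.

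Ordered by their start, the members formed 16 clusters when a new cluster was begun at each gap of over 1 Mb between starts. The widest gap, 6.19 Mb between ZNF254 and ZNF536, holds the centromere. Splitting the members there was chosen after their values were seen. On the short arm, 19 of 71 tested members were higher and 25 lower, and the median was 0.02 on the log2 scale. On the long arm, 82 of 151 were higher and 22 lower, with a median of 0.71. Other protein-coding genes leaned the same way by arm, with 119 of 423 higher and 154 lower on the short arm (median -0.13) and 169 of 427 higher and 120 lower on the long arm (median 0.31). The sign of the short-arm median depends on the scaling: it was -0.17 when counts were scaled by library size only. With upper quartile scaling the short arm had 24 higher and 22 lower.

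The pair of clusters at the end of the long arm held 51 of the 101 higher members. Between ZNF628 and ZNF446 (55.48 to 58.48 Mb), 33 of 56 tested members were higher and 6 lower (median 0.76). With a gap of 0.5 Mb it split into a stretch to 56.67 Mb with 4 of 14 higher and 2 lower (median 0.26) and one from 57.19 Mb with 29 of 42 higher and 4 lower (median 0.97). Between ZNF175 and ZNF331 (51.57 to 53.58 Mb), 18 of 32 were higher and 5 lower (median 0.91). By calls, the few other coding genes inside these bounds did not lean upward. In the former, 4 of 23 were higher and 9 lower, though their median was 0.13. From 57.19 Mb, 2 of 11 were higher and 3 lower, with a median of 0.35. In the latter, 0 of 4 were higher and 1 lower (median -0.77). Between ZNF575 and ZNF296 (43.53 to 45.08 Mb) 12 of 24 were higher and 2 lower (median 0.62), and between ZNF565 and ZNF607 (36.18 to 37.72 Mb) 10 of 25 were higher and 7 lower (median 0.38). In both large clusters nearer the tip of the short arm, lower members outnumbered higher ones. Between ZNF557 and ZNF846 (7.07 to 9.79 Mb) 2 of 14 were higher and 6 lower (median -0.39), and between ZNF653 and ZNF791 (11.48 to 12.64 Mb) 5 of 23 were higher and 8 lower (median 0.01).

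Neighbours changed alike little more often than other pairs of a cluster. Of 206 pairs of tested members next to each other in a cluster, 134 (65.0%) had the same sign, against 61.5% of all 3382 pairs within clusters. Pearson's r of their log2 fold changes was 0.09 and Spearman's rho 0.25 over these 206 pairs, which share members and libraries. Where both neighbours were called, 69 pairs went the same way and 26 opposite ways. The long arm, where most calls were higher, gave 53 and 17 of these, and the short arm 16 and 9. The share among other called pairs of a cluster is not given here, so these counts have no background.

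The cluster next to the centromere on the short arm, from ZNF101 to ZNF254 (19.67 to 24.13 Mb), held 12 of the 22 members with a fitted change past 16-fold, 7 higher and 5 lower. Low counts leave some of these unsure of 16-fold. ZNF730 was bounded at 12.1-fold and the counting interval of ZNF93 began at 10.6, while those of ZNF90 and ZNF681 began at 23.8 and 19.5. With a gap of 0.5 Mb it split in 2, with 10 of these members up to 22.22 Mb and 2 from 22.83 Mb. It lists 32 members, of which 29 were tested, 9 were higher, 11 lower and 9 not called, and the median was 0.02 on the log2 scale. Along the chromosome, ZNF506, ZNF253 and ZNF93 were higher, the next members, ZNF682 and ZNF90, were lower, and the next, ZNF486, ZNF737 and ZNF626, were higher again. ZNF506, ZNF682 and ZNF737 are named here after their values were seen.

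ZNF93 (ENSG00000184635, chr19:19900913-19963464) encodes a KRAB protein known to silence L1 retrotransposons. It had 0, 7 and 0 counts in NC and 109, 75 and 113 in LINC00862, or 0, 0.0176 and 0 FPKM against 0.254, 0.199 and 0.299 FPKM. Every LINC00862 library lay far above every NC library, with a log2 fold change of 5.42 (standard error 0.98, adjusted p = 0.00104). Since 7 counts are so few, the ratio of the higher to the lower group in scaled counts, 45.3, has a 95% counting interval of 10.6 to 332.

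ZNF486 (ENSG00000256229, chr19:20167214-20200488) had 8, 0 and 0 counts in NC and 164, 159 and 96 in LINC00862. All its NC counts came from replicate 1, and the groups did not overlap (log2 fold change 5.76, standard error 0.92, adjusted p = 0.000507, ratio 55.9 with a counting interval of 15.1 to 469). ZNF253 (ENSG00000256771, chr19:19865882-19894674) had 0, 4 and 6 counts in NC and 134, 112 and 117 in LINC00862. Its LINC00862 libraries were closely alike, at 0.475 ± 0.00938 FPKM (SD, n = 3), all above NC (log2 fold change 5.21, standard error 0.73, adjusted p = 0.000235, ratio 38.8 with a counting interval of 13.1 to 407). ZNF626 (ENSG00000188171, chr19:20619939-20661596) had 18, 0 and 2 counts in NC and 272, 182 and 227 in LINC00862. NC replicate 1 again held most of the NC counts, below every LINC00862 library (log2 fold change 5.20, standard error 0.86, adjusted p = 0.000655).

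Among the falls of the same cluster, ZNF90 (ENSG00000213988, chr19:20077994-20127076) had 391, 276 and 237 counts in NC and 0, 11 and 0 in LINC00862. Only LINC00862 replicate 2 had any, far below NC (log2 fold change -6.20, standard error 0.93, adjusted p = 0.000343, ratio 77.0 with a counting interval of 23.8 to 345). ZNF681 (ENSG00000196172, chr19:23739195-23758891) had 267, 204 and 142 counts in NC and 4, 0 and 4 in LINC00862. Its NC libraries lay between 0.326 and 0.620 FPKM, and no LINC00862 library came near them (log2 fold change -6.09, standard error 0.68, adjusted p = 5.49e-05, ratio 71.8 with a counting interval of 19.5 to 597). ZNF730 (ENSG00000183850, chr19:23075210-23147221) had 58, 35 and 62 counts in NC and 0 in all 3 LINC00862 libraries, so it was at least 12.1-fold lower in LINC00862 (adjusted p = 0.000237). That bound takes 3 fragments over the group as the floor. In these files 4 is a far more common count than 3 or 5 (1269 to 1450 genes per library, against 652 to 848 at 3 and 397 to 542 at 5), although 1 (919 to 1150 genes) and 2 (754 to 1015) are common too. Here 1 fragment was taken as 4 counts and the floor as 12, and the bounds and intervals rest on that choice.

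ZNF91 (ENSG00000167232, chr19:23304991-23395471), whose protein silences SVA retrotransposons and which has 31 fingers by its coding sequence, lies between ZNF730 and ZNF681 and did not pass the test. It had 1154, 682 and 672 counts in NC and 809, 726 and 843 in LINC00862. The groups overlapped, with NC replicate 1 highest and NC replicates 2 and 3 lowest (log2 fold change 0.05, standard error 0.23, adjusted p = 0.869).

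All 28 members of this cluster with a RefSeq promoter carried CCAATCAG whatever their call: 6 of 6 higher, 10 of 10 lower, 9 of 9 not called and 3 of 3 not tested. Their promoters also held few CpG pairs, a median of 8 per 250 bases, against 16 over all 209 member promoters and 11 over all promoter entries. Within the cluster the medians were 7.5 for higher, 8 for lower and 8 for not called members, close together. Over all member promoters the word stood in 13 of 86 higher (15.1%), 17 of 43 lower (39.5%) and 19 of 69 members not called (27.5%). These shares move with position, since most promoters with the word lie in this cluster and in the one between ZNF653 and ZNF791, both on the short arm.

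Beyond this cluster, the largest fitted rise belonged to ZNF536 (ENSG00000198597, chr19:30228290-30558059), a gene of the nervous system whose protein has no KRAB domain and represses neuronal differentiation, and which stands alone past the centromere. It had 0 counts in all NC libraries and 52, 68 and 83 in LINC00862, or 0.112 ± 0.0328 FPKM (SD, n = 3). It was at least 18.1-fold higher in LINC00862 (adjusted p = 0.000147), at a level that stayed low. In its transcript, 15.7% of the stretches of 150 bases also occur in transcripts of other annotated genes, of which AC011504.1 holds the most. ZNF347 (ENSG00000197937, chr19:53124072-53159053) had 0, 0 and 4 counts in NC and 81, 69 and 47 in LINC00862. NC held what was taken as 1 fragment, so its ratio of 52.6 has a counting interval of 8.96 to 2108 (log2 fold change 5.56, standard error 0.94, adjusted p = 0.000708).

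ZNF793 (ENSG00000188227, chr19:37506939-37548762) fell most among the long-arm members, from 592, 269 and 297 counts in NC to 5, 0 and 6 in LINC00862. NC replicate 1 was highest and the groups were far apart (log2 fold change -6.55, standard error 0.70, adjusted p = 4.19e-05, ratio 98.6 with a counting interval of 30.7 to 442). ZNF442 (ENSG00000198342, chr19:12345944-12365905) had 65, 75 and 50 counts in NC and 0 in every LINC00862 library, at least 14.8-fold lower (adjusted p = 0.000145). ZNF625 (ENSG00000257591, chr19:12142090-12156714) had 108, 69 and 60 counts in NC and 0 in every LINC00862 library, at least 18.5-fold lower (adjusted p = 0.000108). The ZNF625 value is uncertain, since 92.5% of the 150-base stretches of its coding transcript also occur in other genes. The readthrough gene ZNF625-ZNF20 holds the most of them, and the counting could have split those reads. The readthrough gene was not examined here.

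The 4 members of highest mean FPKM over the 6 libraries, a mean pooled over groups that differ, went in both directions. ZNF146 (OZF), a protein made of little else than zinc fingers, had the highest mean of all members and 22.9, 15.9 and 14.6 FPKM in NC against 36.6, 37.8 and 38.0 in LINC00862. Every LINC00862 library was higher, and the LINC00862 libraries were closely alike (log2 fold change 1.26, standard error 0.16, adjusted p = 0.000151). ZNF428 went the other way, from 15.0, 23.7 and 27.7 FPKM to 4.66, 5.26 and 5.22, with every LINC00862 library below every NC library (log2 fold change -1.97, standard error 0.26, adjusted p = 0.000168). ZNF787 rose from 5.43, 6.27 and 7.53 FPKM to 14.1, 15.2 and 13.7, again without overlap (log2 fold change 1.33, standard error 0.18, adjusted p = 0.000181). ZNF581 had 8.90 ± 2.28 FPKM in NC and 8.48 ± 0.847 in LINC00862 (SD, n = 3) and did not pass the test (adjusted p = 0.771). Within these 4, the order by mean FPKM in NC was ZNF428, ZNF146, ZNF581 and ZNF787, where ZNF428 overlapped ZNF146 and ZNF581 overlapped ZNF787. In LINC00862 the order was ZNF146, ZNF787, ZNF581 and ZNF428, and no neighbours in it overlapped. They are not the highest 4 of either group: in NC, ZNF358 (11.8 FPKM) lay above ZNF581 and ZNF787, and in LINC00862, ZNF524 (10.7 FPKM) and ZNF580 (9.13 FPKM) lay above ZNF581 and ZNF428. ZNF358, ZNF524 and ZNF580 are named here after their values were seen.

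Of 11 members with a role known from the literature, 5 rose, 3 fell and 3 did not pass the test, against 34.4% and 29.8% of all genes. ZNF274, which brings SETDB1 to the 3′ ends of ZNF genes, had 1597, 1243 and 1027 counts in NC and 4824, 4202 and 4429 in LINC00862. Its groups were well apart, at 2.33 ± 0.526 and 7.71 ± 0.190 FPKM (SD, n = 3), with a log2 fold change of 1.91 (standard error 0.17, adjusted p = 1.29e-05). ZNF331, an imprinted gene, fell from 1778, 2282 and 1327 counts to 224, 195 and 168, with NC replicate 2 highest and no overlap (log2 fold change -3.11, standard error 0.24, adjusted p = 5.44e-06). ZNF382, a KRAB repressor studied as a tumour suppressor, fell from 330, 201 and 197 counts to 19, 20 and 0 (log2 fold change -4.14, standard error 0.78, adjusted p = 0.0014).

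ZNF587 and ZNF417, a near-identical pair whose proteins silence HERV-K elements, were both higher. ZNF587 had 3.63, 2.25 and 1.41 FPKM in NC and 4.44, 6.01 and 5.01 in LINC00862 (log2 fold change 1.28, adjusted p = 0.00299). ZNF417 had 1.26, 0.810 and 0.303 FPKM in NC and 1.48, 1.57 and 1.29 in LINC00862, with NC replicate 1 just under the lowest LINC00862 library (log2 fold change 1.06, adjusted p = 0.0452). The ZNF417 call was lost without any 1 of the LINC00862 libraries (adjusted p = 0.0916 to 0.0999) and without NC replicate 2 (0.0883). In its transcript, 18.4% of the 150-base stretches also occur in other genes, of which ZNF587 holds the most. ZNF224, which binds the Wilms tumour protein WT1, rose from 3.01, 3.60 and 1.64 FPKM to 4.64, 4.94 and 6.71 (log2 fold change 1.17, adjusted p = 0.00637). ZNF671, known as a gene methylated in cancers, fell by 0.85 on the log2 scale, from 0.817 ± 0.0530 to 0.398 ± 0.0146 FPKM (SD, n = 3, adjusted p = 0.0229 by edgeR), a call lost without LINC00862 replicate 1 (0.0740), LINC00862 replicate 2 (0.0715) or NC replicate 3 (0.0523). ZNF420, a negative regulator of p53, had a log2 fold change of 0.38 (adjusted p = 0.222), and ZNF568, whose mouse counterpart represses a placental transcript of Igf2, one of -0.17 (adjusted p = 0.741).

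Features of the proteins lay close together between the calls. A KRAB zinc finger entry of KEGG orthology is paired in the deposited table with 181 of the 235 members (77.0%). Of the tested members with it, 82 of 171 were higher and 35 lower, and of those without it, 19 of 51 were higher and 12 lower. The entry was not checked against the proteins, so members without it may still carry a KRAB domain. C2H2 fingers counted in the longest coding sequence of each member ranged from 0 to 36, with a median of 13 in higher, 12 in lower and 12 in members not called. Lower members had the lowest median level, 0.559 FPKM, against 1.22 in higher members and 1.18 in those not called. Promoter CpG had a median of 16.5, 13 and 17 in higher, lower and not called members.

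The counting of this family is uncertain where transcripts share sequence. For each of the 235 members, 1 coding transcript was compared with the transcripts of other genes. By it, 60 members share at least 1 stretch of 150 bases, the read length, and 27 share over 10% of their stretches. Other transcripts of the members were not scanned, so the count of 60 is a minimum, and the count of 27 could change either way. ZNF320, named here for its overlap, shares 99.5% with other genes, of which ZNF468 holds the most. ZNF177 shares 93.2%, and a readthrough gene holds the most. ZNF468 itself was counted as sharing 0%, by the transcript chosen for it. Without those 27, 127 of 195 tested members were called, 88 higher and 39 lower.

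Genes of KRAB corepression, H3K9 methylation and DNA methylation mostly fell, in lists chosen with earlier results of these data known. Of 24 tested genes of the corepressor complex, the HUSH complex, the H3K9 methyltransferases with DAXX and ATRX, and DNA methylation, 17 were lower, against 29.8% of all genes and 36.9% of protein-coding genes tested, 2 were higher and 5 not called. Their median was -0.68 on the log2 scale, against 0.11 for all genes and -0.11 for all protein-coding genes tested. A test against a change of 1.5-fold called 9 lower and 2 higher. The shares of all genes under that test are not given here, so these counts have no background. TRIM28, the hub that KRAB domains bind, fell from 73.3, 81.2 and 103 FPKM to 46.6, 50.5 and 37.7, without overlap (log2 fold change -0.78, standard error 0.19, adjusted p = 0.00546). SETDB1, the H3K9 methyltransferase that TRIM28 brings, rose from 4.25, 3.74 and 3.88 FPKM to 16.2, 16.9 and 15.4, with all LINC00862 libraries well above NC (log2 fold change 2.21, standard error 0.13, adjusted p = 1.04e-06). The only other gene of these lists that rose was DNMT3A, a de novo DNA methyltransferase, at 1.12 ± 0.168 FPKM in NC and 2.63 ± 0.0105 in LINC00862 (SD, n = 3).

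Among the falls were genes of each list. CBX1, an HP1 protein that binds methylated H3K9, had a log2 fold change of -2.73, CBX5, another, one of -1.04, and HDAC2 and HDAC1, the deacetylases of NuRD, -2.85 and -1.85. UHRF1, which brings DNMT1 to newly copied DNA, fell from 19.9, 16.6 and 15.4 FPKM to 1.12, 1.19 and 1.30. That was the largest fall of the 24 (log2 fold change -3.66, standard error 0.17, adjusted p = 2.65e-07), and DNMT1 fell by 1.44 on the log2 scale. All 6 H3K9 and DAXX-ATRX genes were lower, from -0.46 for EHMT2 to -1.53 for ATRX and SUV39H2. The calls of EHMT2, DAXX and TASOR were lost under upper quartile scaling. ATF7IP, CHD3, PPHLN1, MORC2 and DNMT3B did not pass the test.

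**Figure D2:**
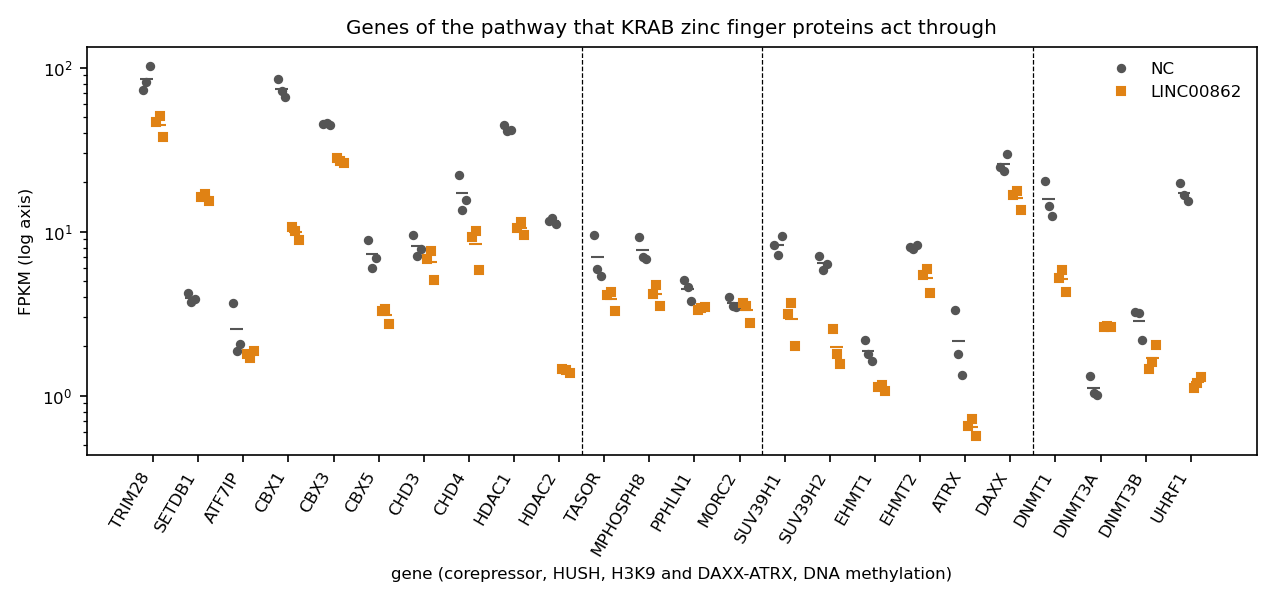
FPKM (log axis) in each of the 6 libraries for the 24 genes of the KRAB corepressor, HUSH, H3K9 and DAXX-ATRX, and DNA methylation lists, grey circles for NC, orange squares for LINC00862 and short lines for group means. SETDB1 and DNMT3A were called higher in LINC00862 and 17 genes were called lower. The 5 genes not called also have lower mean FPKM in LINC00862. The widest gaps are those of UHRF1, HDAC2 and CBX1.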

How the data were processed

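Polyadenylated RNA of 3 LINC00862 and 3 NC libraries was sequenced, and groups and replicate numbers came from the sample titles. The authors deposited 1 table with a count of reads per gene, not normalized, and FPKM, which the authors scaled by transcript length and mapped fragments. The submitters' processing notes name the build hg38 and, with no roles, cutadapt 1.9, HISAT2 2.0.4, UMI-tools, StringTie 1.3.4d, DESeq2 and edgeR; the program that counted is not given in the sources used here. Library preparation kept the strand, and whether counting used it is not given there. The table pairs genes with GO and KEGG terms, and it holds no columns of fold changes or p-values.

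Counts were tested for every gene with edgeR 4.0.16 in R 4.3.3 (filterByExpr, TMM, quasi-likelihood test, Benjamini-Hochberg adjustment over all genes tested), and standard errors were derived from the F statistic. Scripts were tested on simulated data. Alternatives were DESeq2 1.42.0, other scalings and filters, limma 3.58.1 on FPKM, a replicate block, leaving out each library, a stricter false discovery rate (0.01), testing against 1.5-fold and a cluster gap of 0.5 Mb. Intervals and floors (95%, 3 fragments over the group) cover counting error only. Exact permutation of 3 against 3 libraries cannot go below p = 0.1.

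The members, lists and rules were chosen with earlier results of these data known. Named members are the 6 largest rises and 6 largest falls by fitted log2 fold change among called members without overlap in FPKM and with a mean of at least 0.1 FPKM in 1 group, the 4 of highest mean FPKM, those with a role known from the literature, and members at cluster ends. Promoters came from RefSeq and were found for 209 members. RefSeq proteins were not used here, so fingers were counted in coding sequences of GENCODE 29, in which 96 of the 235 members have the same coordinates as in the deposited table. In place of a KRAB match in the protein, the KEGG orthology entry of the table was used.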

Additional observations from a re-analysis of the deposited data

How the results depend on the processing

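The number of members called lay between 110 and 163 over the alternatives, against 148, and members higher in LINC00862 outnumbered those lower under every one of them (73 to 122 against 37 to 51). Leaving out 1 library gave 127 to 154 called, 87 to 108 higher, 40 to 47 lower and a median log2 fold change of 0.46 to 0.62. Shares of all genes are given below only for TMM, upper quartile and library size scaling. The counts of members called under the other alternatives, among them left-out libraries and the replicate block, therefore have no background here. The members' median was 0.75 under upper quartile scaling, 0.36 by library size alone, 0.18 with limma on log2(FPKM + 1) and 0.36 with log2(FPKM + 0.1), where added pseudocounts shrink low genes. The share of called members that were higher was 68.2% by TMM, 74.8% by the upper quartile and 62.5% by library size alone. Over all genes called, that share was 53.6%, 60.4% and 48.5%. The median of all genes was 0.11, 0.32 and -0.05. Against a change of 1.5-fold, 11 genes of the corepressor and H3K9 lists were called and 9 were lower, in place of 19 and 17. The shares of all genes under that test are not given here. LINC00862 ranged from 0.46 with limma on log2(FPKM + 1) to 3.83 without NC replicate 2. A gap of 0.5 Mb gave 20 clusters in place of 16. Libraries with the same number did not deviate together (correlations of same-numbered deviations -0.05, -0.03 and -0.01), and the replicate block gave 134 members called, 92 higher and 42 lower. Leaving out members with shared stretches was added after the data were seen. Of 867 values for 51 named genes under alternatives, 823 kept their call and direction, 39 lost the call, 5 gained it and 0 reversed.

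Low counts limit what can be said of the largest changes: 5 members have a group at 0, their fitted values are no bounds, and with those 5 at their bounds the members' median was also 0.53.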
